A study of Mus musculus with 20 samples.

Results

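Fibroblast growth factors (FGFs) and their receptors were described in renal myofibroblasts grown out of kidneys of WT mice and of mice lacking the ubiquitin ligase WWP2. The 10 genes were chosen by name: the ligands *Fgf1*, *Fgf2*, *Fgf7*, *Fgf10* and *Fgf18* and the receptors *Fgfr1*, *Fgfr2*, *Fgfr3*, *Fgfr4* and *Fgfrl1*. All 10 were among the 20407 genes tested, of 51826 in the table. The cells were primary cultures from C57BL/6J kidneys at passage 2, and poly-A RNA was sequenced. There were 5 libraries each of untreated WT, TGFβ1-treated WT, untreated WWP2-/- and TGFβ1-treated WWP2-/- cells. The dose of 5 ng/μl and the exposure of 72 hours are those of the study text and are missing from the labels. The WWP2-/- cells are described as lacking the full-length and N isoforms of WWP2, so other isoforms may remain. The study text says in general that a plotted data point stands for 1 mouse or its cells, but the labels tie no library to an animal, so *P* values measure the spread between these libraries.

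FGFs are secreted proteins that bind receptor tyrosine kinases together with heparan sulfate, which holds ligand and receptor in one complex. Receptor activation runs through the adaptor FRS2 to RAS and MAP kinases, and Sprouty, SPRED and dual-specificity phosphatase proteins restrain it. In the kidney, mesenchymal cells release FGF7 and FGF10 to the epithelial splice form of FGFR2, and FGF1 and FGF2 are known as fibroblast mitogens. Gene-level counts do not separate the splice forms of the receptors, and in bulk libraries fewer cells of a type and less RNA per cell cannot be told apart.

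The letters before the start sites of *Fgfr2* and *Fgf7* are shown because *Fgfr2* was the receptor whose level passed the test between genotypes and *Fgf7* encodes a ligand of it that spread widely among WWP2-/- libraries. Both were picked after their values were seen. RefSeq (GRCm38.p6) gives the 250 bases before *Fgfr2* as chr7:130266809-130267058 on the minus strand and those before *Fgf7* as chr2:126034408-126034657 on the plus strand, and both are written 5′ to 3′ with motif matches in capitals. The *Fgfr2* window lies inside the gene as annotated for the counts, chr7:130162451-133123350. It therefore precedes a RefSeq start site and not the outermost start of the annotated gene, whose upstream bases were not searched.
Fgfr2: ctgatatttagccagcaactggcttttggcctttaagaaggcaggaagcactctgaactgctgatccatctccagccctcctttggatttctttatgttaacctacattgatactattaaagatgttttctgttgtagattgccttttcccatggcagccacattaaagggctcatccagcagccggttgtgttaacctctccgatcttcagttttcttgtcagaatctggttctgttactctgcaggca
Fgf7: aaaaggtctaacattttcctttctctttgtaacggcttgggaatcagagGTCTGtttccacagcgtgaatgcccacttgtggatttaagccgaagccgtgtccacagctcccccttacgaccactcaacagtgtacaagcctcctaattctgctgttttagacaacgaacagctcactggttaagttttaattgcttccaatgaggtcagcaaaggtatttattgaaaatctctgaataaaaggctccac
The motifs were searched on both strands, and no string contains another. They were a SMAD element (GTCTAGAC), a short SMAD element (GTCTG or CAGAC), AP-1 (TGANTCA), TEAD (GGAATG or CATTCC) and an E-box of the Twist type (CATCTG or CAGATG). *Fgfr2* held 0 matches in this window, and *Fgf7* held 1, a short SMAD element starting at position -201 from the start site. That string is common, since 42.2% of 32851 promoters of this length held it. The other shares were 0.167% for the SMAD element, 6.75% for AP-1, 12.6% for TEAD and 14.4% for the E-box. Of the 10 genes, 8 were in the promoter table, and *Fgf1* and *Fgfr1* were not. *Fgf2* held 1 short SMAD element, *Fgf18* held 2 and *Fgf10* held 1 E-box. The windows of *Fgf2* and *Fgf10* also began inside their annotated genes.

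Levels are CPM, the reads of a gene relative to the sequencing depth of its library, scaled by edgeR's TMM factors. The total was between 47520759 and 73063697 counts per library, and 3 counts were at most 0.0631 CPM. *Wwp2* stood at 50.0 to 59.9 CPM in WT and 50.8 to 58.4 CPM in treated WT cells, against 18.5 to 22.7 CPM in WWP2-/- and 17.0 to 21.1 CPM in treated WWP2-/- cells, log2 fold changes of -1.37 (SE 0.084, adjusted *P* of 4.32e-08 by edgeR) untreated and -1.49 (SE 0.084, adjusted *P* of 1.06e-08 by edgeR) with TGFβ1. The summed level of 10 fibroblast markers was 4597 to 36050 CPM per library, and the libraries were not alike within groups. *Xist*, the RNA of the inactive X chromosome, was above 1 CPM without Y-linked transcripts in 6 libraries, Y-linked transcripts were above 1 CPM without *Xist* in 9, and both were in 5. The Y-linked-only libraries were 1 untreated WT, 1 treated WT, 3 untreated WWP2-/- and 4 treated WWP2-/-. Kind of library was thus uneven between the genotypes, and every comparison of genotypes carries that limit. The fibroblast receptor gene *Pdgfra* was at 66.5 to 179 CPM in the *Xist*-only libraries and at 0.543 to 1.87 CPM in the Y-linked-only libraries. It is 1 of the 10 markers and does not stand for the others. Their sum was 4597 to 36050 CPM in *Xist*-only, 7680 to 26160 CPM in both and 4823 to 13460 CPM in Y-linked-only libraries. *Pdgfrb* overlapped, at 230 to 742 CPM in *Xist*-only and 104 to 541 CPM in Y-linked-only libraries. *Vim* did too, at 985 to 3647 and 2566 to 3966 CPM. Of the *Xist*-only libraries, 4 were WT (replicate 3 untreated and replicates 2, 4 and 5 treated) and 2 were WWP2-/- (replicate 3 untreated and replicate 1 treated). These WWP2-/- libraries also stood apart in the contractile gene *Acta2*, at 38.9 and 50.5 CPM against 1016 to 3430 CPM in the other 18. Results that rest on them are given with and without them, except the correlations with genes outside the 10.

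*Fgfr1* was the main receptor transcript of these cells in every library. Per kilobase of exon it made up 89.7% to 98.9% of the sum of *Fgfr1* to *Fgfr4*. *Fgfr2* made up 1.03% to 7.80%, *Fgfr4* 0% to 4.94% and *Fgfr3* 0.0553% to 0.874%. No ligand held such a place: *Fgf1* was the largest share of the 5 ligands in 9 libraries, *Fgf18* in 6, *Fgf2* in 3 and *Fgf7* in 2. *Fgf10* never exceeded 0.741% of the ligand sum.

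**Figure D1:**
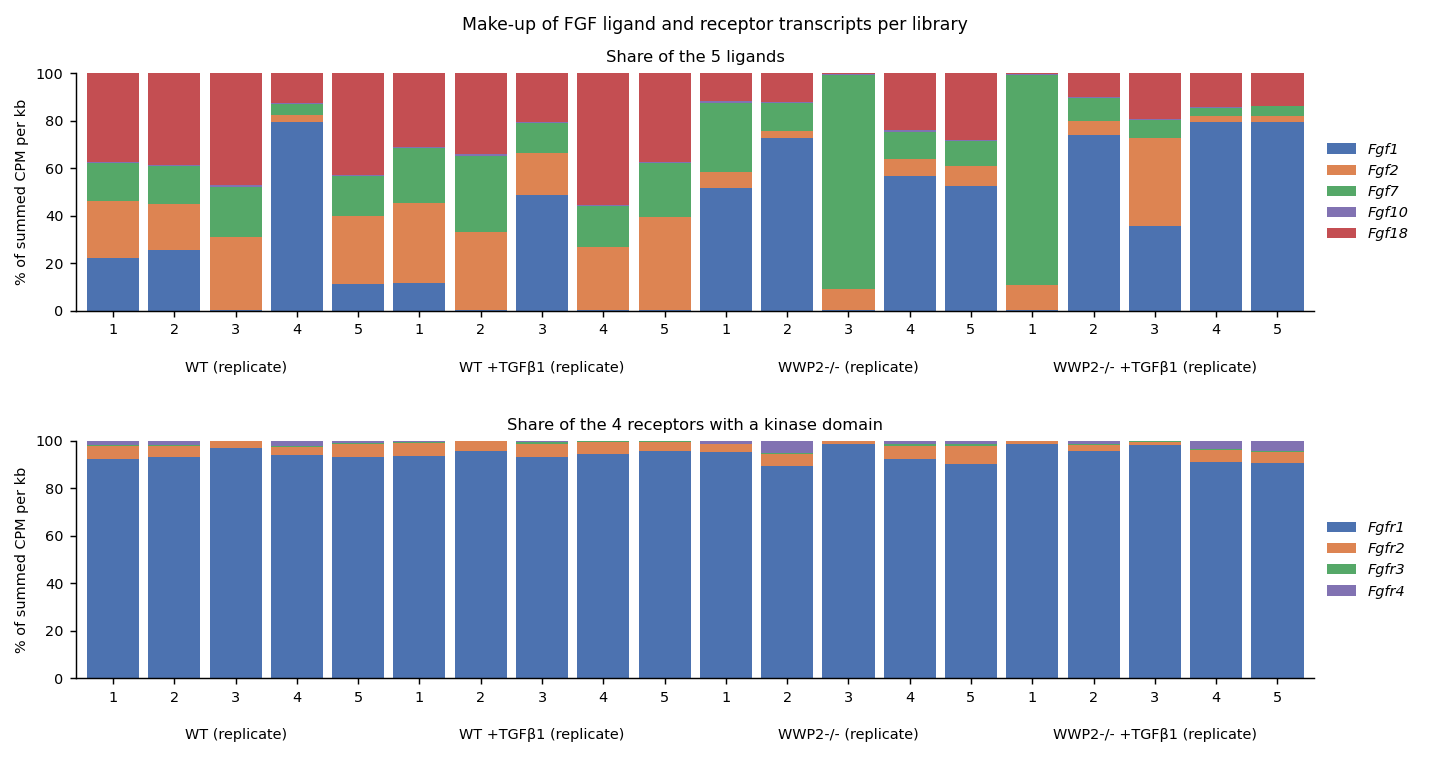
Stacked bars give each gene's share (%) of the summed CPM per kilobase of exon, of the 5 ligands (upper plot) and of *Fgfr1* to *Fgfr4* (lower plot), with 1 bar per library and the replicate number under it. *Fgfr1* fills 89.7% to 98.9% of every lower bar, while the largest ligand changes from library to library.

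The order of levels per kilobase was the same at its top and differed below. *Fgfr1* led in all 4 groups, at 50.2±13.8 CPM per kb in WT, 60.3±10.5 in treated WT, 76.9±64.7 in WWP2-/- and 79.2±61.2 in treated WWP2-/- cells (mean±SD, n=5). In both WT groups its lowest library lay above every library of the gene next in mean, *Fgf18* or *Fgfrl1*, but *Fgf1* in untreated WT, up to 67.4 CPM per kb, and *Fgf18* in treated WT, up to 47.0 CPM per kb, reached into its range. In both WWP2-/- groups its range overlapped that of *Fgf1*, which came next at 29.4±17.7 and 45.8±34.1 CPM per kb. *Fgfr2* ranked 7 in each group, between 1.76 and 3.06 CPM per kb on average. *Fgfr3*, *Fgfr4* and *Fgf10* filled the last 3 places at means under 1 CPM per kb, and neighbours among them overlapped in range, except that *Fgf10* lay above *Fgfr3* in untreated WT cells.

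*Fgfr2* (ENSMUSG00000030849, chr7:130162451-133123350, minus strand) encodes the receptor for FGF7 and FGF10 in its epithelial form and for other FGFs in its mesenchymal form. It was lower in treated WWP2-/- than in treated WT cells. TGFβ1-treated WT replicates 1 to 5 held 33.4, 27.0, 46.3, 23.9 and 27.3 CPM, and TGFβ1-treated WWP2-/- replicates 1 to 5 held 21.7, 17.0, 11.8, 20.5 and 19.7 CPM. The groups did not overlap, with WT replicate 3 highest and WWP2-/- replicate 3 lowest. The means were 31.6±8.91 and 18.2±3.96 CPM (mean±SD), a log2 fold change of -0.80 (SE 0.21) with an adjusted *P* of 0.0329 by edgeR's quasi-likelihood test (0.00734 by DESeq2, which called 13.1% of all genes). It was the only 1 of the 10 genes called in this comparison, in which 6.07% of all genes tested were called, and 5.67% of all genes had groups that did not overlap. A share of 1 in 10 is near that background and is not a result about the 10 genes as a set. The call was fragile, while the log2 fold change stayed between -0.89 and -0.64 over all alternatives. The call was lost with no filter (adjusted *P* of 0.0509), with *Xist* as a covariate (0.0536), in a fit of only these groups (0.0784) and without the 5 libraries that held both *Xist* and Y-linked transcripts (0.156, in a fit that called 0.0101% of all genes), and leaving out 1 library at a time ended it in 7 of 10 fits, for treated WWP2-/- replicates 2, 3, 4 and 5 and treated WT replicates 1, 2 and 5.

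Split by *Xist*, the groups held 1 to 4 libraries, so the values are given with no test. Among treated libraries with *Xist* above 1 CPM, alone or with Y-linked transcripts, the 4 WT libraries held 23.9 to 33.4 CPM and the WWP2-/- library 21.7 CPM. Among those without it, the WT library held 46.3 CPM and the 4 WWP2-/- libraries 11.8 to 20.5 CPM. Among untreated libraries without it the order was opposite, with 16.2 CPM in the WT library and 22.4 to 36.6 CPM in 3 WWP2-/- libraries. Untreated libraries with *Xist* overlapped, at 20.5 to 27.2 CPM in 4 WT and 20.6 to 24.2 CPM in 2 WWP2-/- libraries. Leaving out the 2 WWP2-/- libraries with low *Acta2* gave a treated log2 fold change of -0.88 (adjusted *P* of 0.0183 by edgeR). That fit called 17.2% of all genes.

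Without TGFβ1, *Fgfr2* did not pass the test. WT replicates 1 to 5 held 25.4, 21.9, 20.5, 16.2 and 27.2 CPM, and WWP2-/- replicates 1 to 5 held 24.2, 22.4, 20.6, 29.8 and 36.6 CPM. The ranges overlapped, and 2 of the WWP2-/- libraries were above all WT libraries. The log2 fold change was 0.27 (SE 0.21, adjusted *P* of 0.567). The difference between treated and untreated genotype effects was -1.07 (SE 0.30, unadjusted *P* of 0.00199 by edgeR), which did not pass after adjustment over all genes (adjusted *P* of 0.511), so the effects were not shown to differ. TGFβ1 against untreated gave 0.51 in WT (SE 0.21, adjusted *P* of 0.659) and -0.56 in WWP2-/- cells (SE 0.21, adjusted *P* of 0.9999). Of the exon bases of *Fgfr2*, 3.04% are shared with *Ctbp2* on the same strand, since the annotated gene reaches past its neighbour.

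**Figure D2:**
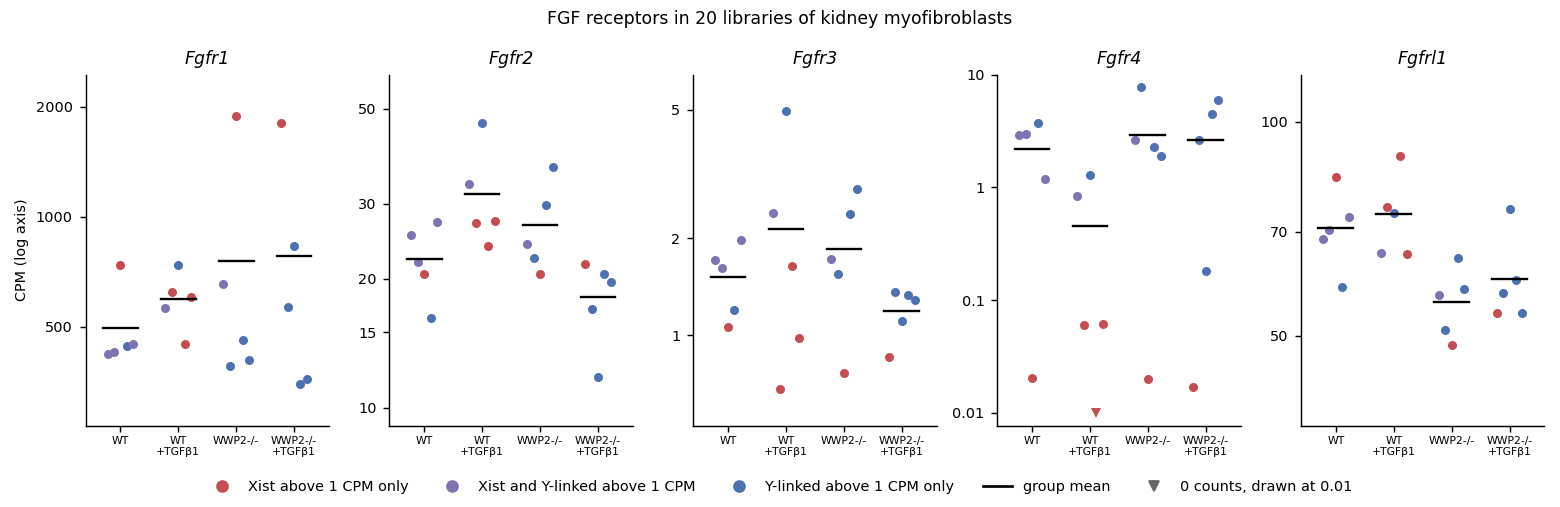
Points give CPM (log axis) of the 5 receptor genes in each of 20 libraries, placed by group, in replicate order within a group, and coloured by whether *Xist*, Y-linked transcripts or both were above 1 CPM. The black line is the group mean (n=5), and the triangle marks a library with 0 counts, drawn at 0.01 CPM. For *Fgfr2* the treated WWP2-/- points lie at 11.8 to 21.7 CPM, all under the treated WT points at 23.9 to 46.3 CPM.

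*Fgfr1* (ENSMUSG00000031565, chr8:25513654-25575718, plus strand), the receptor that carries most FGF2 signalling in mesenchymal cells, did not pass the test in any comparison. Untreated WT replicates held 421, 427, 739, 442 and 450 CPM, and untreated WWP2-/- replicates 654, 391, 1887, 459 and 405 CPM. With TGFβ1, WT replicates held 564, 622, 738, 449 and 605 CPM and WWP2-/- replicates 1804, 566, 832, 349 and 360 CPM. The groups overlapped, and the highest values belonged to the 2 WWP2-/- libraries with low *Acta2*. The log2 fold changes were 0.61 untreated (SE 0.46, adjusted *P* of 0.541) and 0.39 with TGFβ1 (SE 0.46, adjusted *P* of 0.639). Without those 2 libraries both changed sign, to -0.081 and -0.18, and neither passed.

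*Fgfrl1* (ENSMUSG00000008090, chr5:108692382-108706924, plus strand) encodes an FGF receptor without a kinase domain and was the steadiest of the 10 genes, ranging from 48.6 to 89.7 CPM. With TGFβ1 it stood at 65.2 to 89.7 CPM in WT and 53.8 to 75.4 CPM in WWP2-/- cells, where 4 of 5 libraries were below all WT libraries. The untreated ranges were 58.5 to 83.6 CPM and 48.6 to 64.4 CPM, again with 4 of 5 WWP2-/- libraries below all WT libraries. The log2 fold changes of -0.30 (SE 0.12, adjusted *P* of 0.130) and -0.34 (SE 0.12, adjusted *P* of 0.205) did not pass. TGFβ1 gave 0.07 in WT and 0.11 in WWP2-/- cells.

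*Fgfr3* (ENSMUSG00000054252, chr5:33721674-33737068, plus strand) and *Fgfr4* (ENSMUSG00000005320, chr13:55152640-55168759, plus strand), receptors best known from cartilage and from liver and epithelia, were low throughout. *Fgfr3* ranged from 0.681 to 4.95 CPM, with log2 fold changes of -0.84 (SE 0.43, adjusted *P* of 0.237) with TGFβ1 and 0.29 (SE 0.43, adjusted *P* of 0.770) untreated. *G630022F23Rik*, on the opposite strand, shares 13.9% of its exon bases, and the sources used here do not state whether counting used strand, so their reads cannot be told apart. *Fgfr4* ranged from 0 to 7.72 CPM and had at most 3 counts in 6 libraries, which were the 6 *Xist*-only libraries. Its log2 fold change with TGFβ1 was 2.54 (SE 1.38, adjusted *P* of 0.261).

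*Fgf1* (ENSMUSG00000036585, chromosome 18), a ligand that binds every FGF receptor and lacks a signal peptide, spread more than any other of the 10 genes that had counts in all libraries, over a 687-fold range. Untreated WT replicates held 94.8, 103, 2.11, 368 and 50.5 CPM and untreated WWP2-/- replicates 227, 242, 0.946, 186 and 147 CPM. With TGFβ1, WT replicates held 39.9, 0.601, 136, 1.58 and 0.613 CPM and WWP2-/- replicates 1.10, 413, 99.5, 372 and 365 CPM. The low values followed the kind of library rather than the group. *Fgf1* was at 0.601 to 2.11 CPM in the 6 *Xist*-only libraries, 39.9 to 227 CPM in the 5 with both and 99.5 to 413 CPM in the 9 Y-linked-only libraries. This is a description, since these kinds were read from the same libraries. The log2 fold change with TGFβ1 was 2.81 with an SE of 1.55 (adjusted *P* of 0.271), and untreated it was 0.38 with an SE of 1.45 (adjusted *P* of 0.920).

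Markers of other cell types moved with *Fgf1* and *Fgfr4*. The summed level of 13 tubular epithelial markers was 16.9 to 114 CPM in the *Xist*-only libraries, 182 to 469 CPM in those with both and 166 to 915 CPM in the Y-linked-only libraries. The sum of 8 macrophage markers was 57.2 to 292, 124 to 1048 and 278 to 3695 CPM in the same order. None of these markers was at 0 counts in all libraries of a group, and the highest levels of the tubular *Cdh16*, *Krt8* and *Epcam* in any library were 366, 52.1 and 7.09 CPM. Their part in the levels of *Fgf1* and *Fgfr4* was not tested.

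*Fgf2* (ENSMUSG00000037225, chr3:37348346-37410108, plus strand), the basic FGF of fibroblast culture, had lower means in WWP2-/- cells but did not pass after adjustment. With TGFβ1, WT replicates held 145, 159, 61.1, 154 and 187 CPM and WWP2-/- replicates 84.7, 40.1, 129, 15.8 and 14.0 CPM. Untreated WT replicates held 126, 97.5, 164, 17.3 and 159 CPM and untreated WWP2-/- replicates 36.4, 13.1, 62.0, 28.7 and 30.0 CPM. The groups overlapped because the single Y-linked-only library of each WT group, replicate 3 with TGFβ1 and replicate 4 without, was the lowest WT library. The log2 fold changes were -1.31 (SE 0.61, adjusted *P* of 0.188) with TGFβ1 and -1.73 (SE 0.61, adjusted *P* of 0.209) without. Among treated libraries without *Xist*, the WT library held 61.1 CPM and the WWP2-/- libraries 14.0 to 129 CPM. Untreated libraries without it held 17.3 CPM in WT and 13.1 to 30.0 CPM in WWP2-/- cells. With *Xist* above 1 CPM the genotypes did not overlap. Treated libraries held 145 to 187 CPM in 4 WT and 84.7 CPM in 1 WWP2-/- library, that with low *Acta2*. Untreated libraries held 97.5 to 164 CPM in 4 WT and 36.4 to 62.0 CPM in 2 WWP2-/- libraries. These values were not tested. *Nudt6*, on the opposite strand, shares 9.44% of the exon bases of *Fgf2*.

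*Fgf18* (ENSMUSG00000057967, chr11:33117430-33147400, minus strand), a ligand known from bone and lung, showed the same direction. With TGFβ1, WT replicates held 23.4, 28.7, 12.4, 55.8 and 31.1 CPM and WWP2-/- replicates 0.387, 12.3, 11.8, 14.4 and 13.6 CPM. Untreated WT replicates held 34.4, 34.0, 44.3, 12.6 and 41.3 CPM and untreated WWP2-/- replicates 11.2, 8.84, 0.503, 17.2 and 17.0 CPM. The WT library without *Xist* was again the lowest of each WT group and lay within the WWP2-/- range, and the lowest WWP2-/- values were those of the 2 libraries with low *Acta2*. The log2 fold changes were -1.53 (SE 0.73, adjusted *P* of 0.203) with TGFβ1 and -1.61 (SE 0.73, adjusted *P* of 0.316) untreated. Without those 2 libraries, the treated difference was -1.23 (SE 0.38) and passed with an adjusted *P* of 0.0382 by edgeR. That fit called 17.2% of all genes and left only Y-linked-only libraries in the treated WWP2-/- group. Among libraries without *Xist*, the treated WT library held 12.4 CPM against 11.8 to 14.4 CPM in the 4 WWP2-/- libraries. The untreated WT library held 12.6 CPM against 8.84 to 17.2 CPM in 3 WWP2-/- libraries. With *Xist* above 1 CPM, treated libraries held 23.4 to 55.8 CPM in 4 WT and 0.387 CPM in 1 WWP2-/- library, that with low *Acta2*. Untreated libraries held 34.0 to 44.3 CPM in 4 WT and 0.503 and 11.2 CPM in 2 WWP2-/- libraries. These values were not tested.

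*Fgf7* (ENSMUSG00000027208, chr2:126034658-126091185, plus strand), keratinocyte growth factor, was decided by single libraries. With TGFβ1, WT replicates held 47.4, 73.9, 21.2, 47.5 and 51.6 CPM and WWP2-/- replicates 330, 32.7, 12.8, 9.70 and 11.1 CPM. Untreated WT replicates held 40.6, 38.1, 54.0, 13.0 and 44.5 CPM and untreated WWP2-/- replicates 75.4, 22.8, 291, 22.4 and 17.1 CPM. In each WWP2-/- group the library with low *Acta2* was the highest of all, and with TGFβ1 3 of the other 4 lay under every WT library. The log2 fold change with TGFβ1 was 0.72 (SE 0.93, adjusted *P* of 0.685). Without the 2 libraries it changed sign to -1.54 (SE 0.51) and passed with an adjusted *P* of 0.0478, with 48.3±18.7 CPM in 5 WT and 16.6±10.8 CPM in 4 WWP2-/- libraries (mean±SD). In that fit 17.2% of all genes were called. It left only Y-linked-only libraries in treated WWP2-/- cells, against 1 of 5 in treated WT cells. Genotype and kind of library therefore cannot be separated in that fit. Among treated libraries without *Xist*, the WT library held 21.2 CPM and the 4 WWP2-/- libraries 9.70 to 32.7 CPM. By kind of library, *Fgf7* was at 47.5 to 330 CPM in *Xist*-only, 38.1 to 75.4 CPM in both and 9.70 to 32.7 CPM in Y-linked-only libraries.

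*Fgf10* (ENSMUSG00000021732, chr13:118669791-118792115, plus strand), the mesenchymal ligand of branching epithelia, was present at 0.565 to 2.70 CPM. Its group means were 1.95±0.43 CPM in WT, 1.36±0.54 in treated WT, 1.84±0.57 in WWP2-/- and 1.40±0.76 in treated WWP2-/- cells (mean±SD, n=5). All groups overlapped, and no log2 fold change was larger in size than that of -0.52 (SE 0.36, adjusted *P* of 0.880) for TGFβ1 in WT cells.

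**Figure D3:**
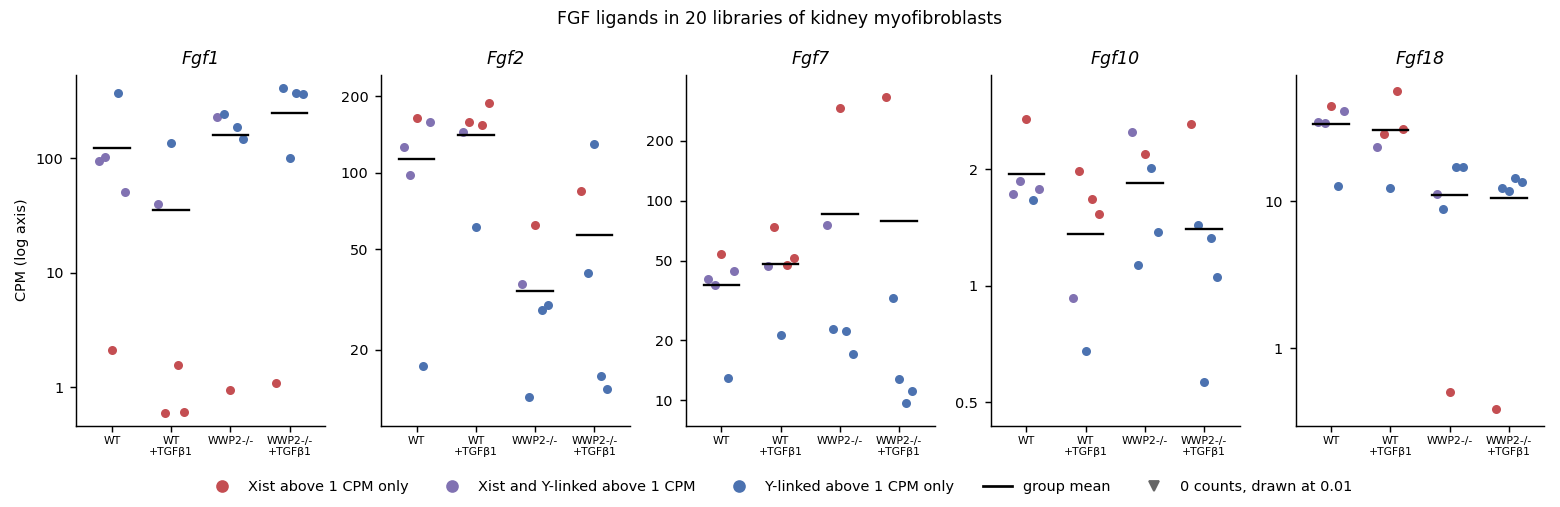
Points give CPM (log axis) of the 5 ligand genes in each of 20 libraries, placed by group and coloured by whether *Xist*, Y-linked transcripts or both were above 1 CPM, with the group mean (n=5) as a black line. *Fgf1* lies at 0.601 to 2.11 CPM in the 6 *Xist*-only libraries of all 4 groups and at 99.5 to 413 CPM in the 9 Y-linked-only libraries.

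Untreated WWP2-/- against WT cells gave 0 calls among the 10 genes, with 0.725% of all genes called, and 3 of the 10 (*Fgf2*, *Fgf18* and *Fgfrl1*) had an unadjusted *P* below 0.05 by edgeR, a level that 14.9% of all genes reached. DESeq2 gave 0 calls among the 10 genes as well, with 3.89% of all genes called. The treated genotypes gave 3 of 10 at that level (*Fgf2*, *Fgfr2* and *Fgfrl1*) against 24.7% of all genes. The median log2 fold change of the 10 genes was -0.13 with TGFβ1 and 0.28 without, beside 0.05 and 0.08 over all genes.

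TGFβ1 against untreated cells gave 0 calls among the 10 genes in either genotype, and 0% of all genes were called by edgeR. At an unadjusted *P* below 0.05 there was 1 of 10, *Fgfr2*, in each genotype, against 6.85% of all genes in WT and 3.49% in WWP2-/- cells. DESeq2's Wald test called 27 (0.132%) and 44 genes (0.255%), none of the 10 among them. The comparisons share libraries, so their values are not independent. The largest difference was that of *Fgfr4* in WT cells, at -2.26 (SE 1.36, adjusted *P* of 0.840), and beside it all 8 macrophage markers and all 11 tubular markers tested had negative values in that comparison, with medians of -2.44 and -2.05. The interaction gave 0 calls, also 0% of all genes, with 1 of 10 (*Fgfr2*) at an unadjusted *P* below 0.05 against 6.98% of all genes, and DESeq2 called 10 genes (0.049%), with *Fgfr2* at an adjusted *P* of 0.144.

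**Figure D4:**
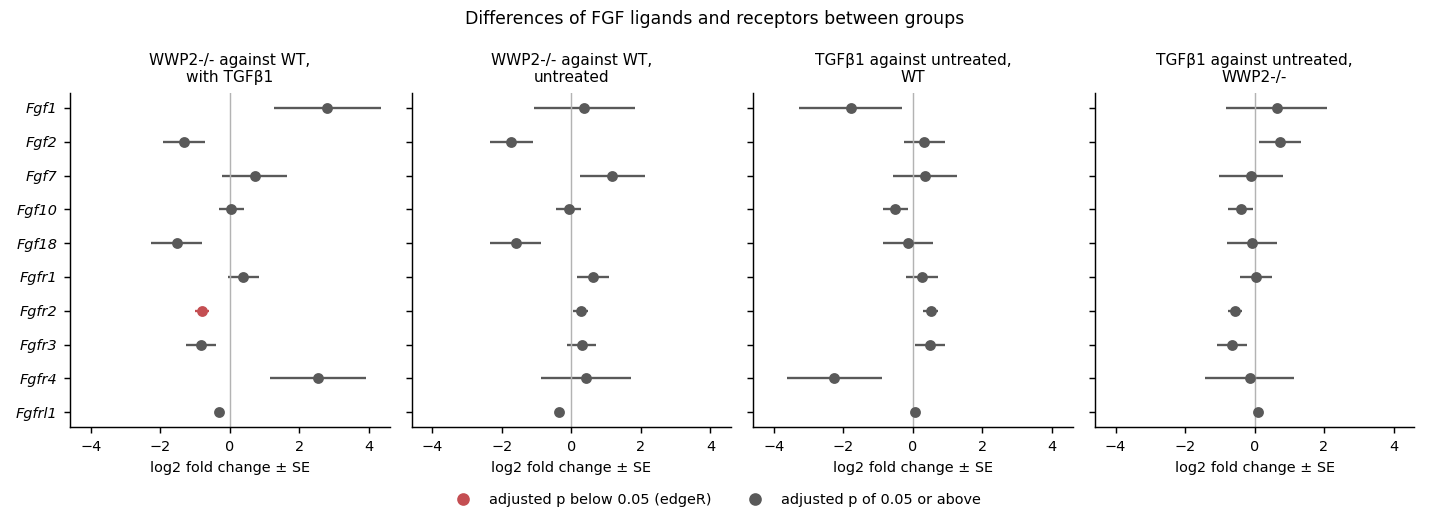
Log2 fold changes with SE (bars) of the 10 genes in 4 comparisons by edgeR, where red marks an adjusted *P* below 0.05. *Fgfr2* between treated genotypes, at -0.80, is the sole red point, and *Fgf1* and *Fgfr4* have the widest bars.

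Beyond the 10 genes, a list of 93 others of the FGF pathway held 83 that were tested. In treated WWP2-/- against WT cells 9 of them were called, 3 higher and 6 lower, beside 6.07% of all genes, and their median log2 fold change was -0.01. In untreated cells 1 was called, beside 0.725% of all genes. There were 0 in the other comparisons, in which edgeR called 0% of all genes.

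Called genes of this list with a mean of at least 1 CPM were ranked by log2 fold change. The 3 with the largest decreases encode a carrier and 2 enzymes of heparan sulfate, the cofactor of FGF binding. *Gpc4*, a cell surface glypican, was at 675, 821, 200, 924 and 801 CPM in treated WT and 124, 170, 205, 177 and 171 CPM in treated WWP2-/- replicates. WT replicate 3, a Y-linked-only library, was the sole WT library within the WWP2-/- range. The log2 fold change was -2.01 (SE 0.42, adjusted *P* of 0.0133). *Sulf1*, which removes 6-O-sulfate from heparan sulfate, fell by 1.91 (SE 0.44, adjusted *P* of 0.0182) with TGFβ1 and by 2.03 (SE 0.44, adjusted *P* of 0.0432) without, and the untreated call was kept in 1 of 10 fits that left out 1 library, the fit without WT replicate 4 (0.00107), and in 4 of 10 other alternatives. *Hs6st2*, which adds 6-O-sulfate, fell by 2.19 (SE 0.50, adjusted *P* of 0.0177 by edgeR) with TGFβ1. Treated WT replicate 3, without *Xist*, held 27.9 CPM of *Hs6st2*, below the 41.9 to 62.4 CPM of all treated WWP2-/- libraries. The other treated WT libraries held 238 to 369 CPM. For *Sulf1*, untreated WT replicate 4, without *Xist*, held 99.55 CPM, below the 118 to 197 CPM of all untreated WWP2-/- libraries. The other untreated WT libraries held 558 to 874 CPM. With *Xist* as a covariate *Gpc4*, *Sulf1* and *Hs6st2* between treated genotypes lost the call (adjusted *P* of 0.0982, 0.169 and 0.179 by edgeR), while the log2 fold changes closest to 0 among the 10 alternatives other than leaving out 1 library were -1.69, -1.36 and -1.67, and their treated WT library without *Xist* was the lowest of the 5. Of 11 core proteins 1 was called and of 17 enzymes tested 2 were, beside 6.07% of all genes, and counts this small are not a result about either group. Of the 10 fibroblast markers, 9 had negative values in the same comparison and 3 were called lower, with a median log2 fold change of -2.35, and their part in these decreases was not tested.

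Of 13 feedback regulators tested (Sprouty, SPRED, dual-specificity phosphatase, *Il17rd* and *Flrt* genes, of which FLRT proteins are known to promote FGF receptor signalling), 2 rose and 1 fell in treated WWP2-/- cells, beside 6.07% of all genes called. *Spred3*, which restrains RAS signalling, was at 24.95, 20.6, 36.0, 15.4 and 22.1 CPM in treated WT and 82.7, 56.9, 56.3, 33.6 and 44.3 CPM in treated WWP2-/- replicates, a log2 fold change of 1.20 (SE 0.29, adjusted *P* of 0.0245). The ranges overlapped through WT replicate 3 and WWP2-/- replicate 4. *Spry4*, a Sprouty, rose by 0.79 (SE 0.21, adjusted *P* of 0.0341), a call kept in 3 of 10 fits that left out 1 library (treated WWP2-/- replicate 1 or 4 or treated WT replicate 3) and 4 of 10 other alternatives. *Spred1* fell by 0.49 (SE 0.12, adjusted *P* of 0.0264) with no overlap between groups, beside 5.67% of all genes. The gap was narrow, from 125 CPM in treated WT replicate 3, a Y-linked-only library, to 123.5 CPM in treated WWP2-/- replicate 2. Untreated WT replicate 4, also Y-linked-only, held 103 CPM of *Spred1*, below the 104 to 128 CPM of untreated WWP2-/- libraries. The phosphatase genes *Dusp6* (1.27, SE 0.48, adjusted *P* of 0.113) and *Dusp5* (1.60, SE 0.50, adjusted *P* of 0.0608) did not pass by edgeR, whereas DESeq2 called *Dusp5* (0.0148). Of the 8 transcription targets of FGF signalling 0 were called by edgeR and 5 had an unadjusted *P* below 0.05, a level that 24.7% of all genes reached. They were *Etv1* (0.71, SE 0.28, adjusted *P* of 0.122), *Etv5* (0.53, SE 0.20, adjusted *P* of 0.121), *Fosl1* (2.36, SE 0.73, adjusted *P* of 0.0608) and *Myc* (1.28, SE 0.43, adjusted *P* of 0.0762) with positive values and *Fos* (-1.11, SE 0.48, adjusted *P* of 0.160) with a negative one. DESeq2, which called 13.1% of all genes, called *Fosl1* (0.00838) and *Myc* (0.0269). Treated WWP2-/- replicate 1, with low *Acta2*, held 139 CPM of *Fosl1*, 126 CPM of *Myc* and 68.0 CPM of *Dusp5*. The other treated WWP2-/- libraries held 12.5 to 31.6, 34.5 to 51.2 and 8.23 to 20.7 CPM in the same order. Treated WT libraries held 5.37 to 13.55, 19.25 to 28.6 and 5.94 to 9.86 CPM.

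Of 19 adaptor and kinase genes, *Nras* rose by 0.42 (SE 0.12, adjusted *P* of 0.0414) and the docking gene *Gab1* fell by 0.61 (SE 0.16, adjusted *P* of 0.0347), 2 of 19 beside 6.07% of all genes. Leaving out 1 library kept the call of *Nras* in 3 of 10 fits (treated WWP2-/- replicate 1 or treated WT replicate 3 or 4) and of *Gab1* in 4 of 10 (the same and treated WWP2-/- replicate 3), and other alternatives kept it in 4 and 6 of 10. *Gab1* was at 40.5 to 51.8 CPM in treated WT and 18.9 to 37.1 CPM in treated WWP2-/- libraries, which did not overlap, beside 5.67% of all genes. The other call was *Fgf14*, with a log2 fold change of -4.12 (SE 1.07, adjusted *P* of 0.0314) at up to 0.449 CPM in treated WT and 0.0404 CPM in treated WWP2-/- libraries. Leaving out 1 library at a time gave between 2 and 14 calls in the list, the fewest without treated WT replicates 2 or 5 and the most without treated WT replicate 3.

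**Figure D5:**
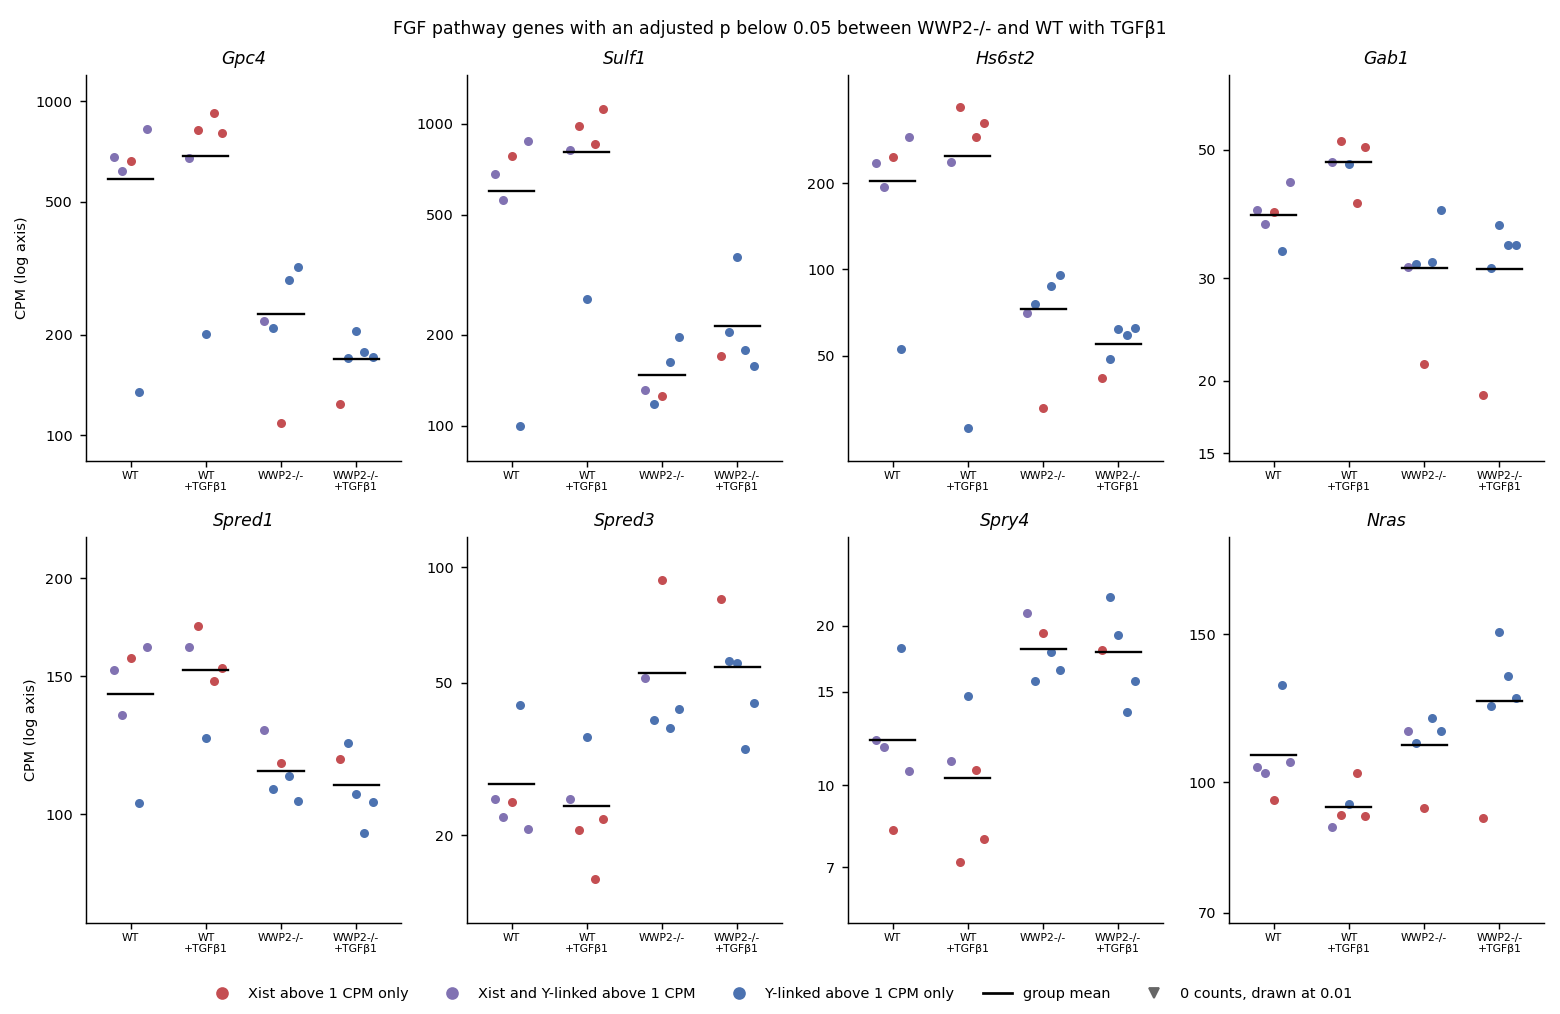
Points give CPM (log axis) of 8 FGF pathway genes with an adjusted *P* below 0.05 between treated genotypes, in each of 20 libraries, coloured by whether *Xist*, Y-linked transcripts or both were above 1 CPM, with the group mean (n=5) as a black line. In treated WT cells the Y-linked-only library is the lowest for *Gpc4*, at 200 CPM, and the highest for *Spred3*, at 36.0 CPM.

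The genes most like each of the 10 over the 20 libraries were found among 13519 genes by Pearson's r on log2(CPM + 2). The libraries share genotype, treatment and the kinds described above, so r is given as a description. The nearest genes depended on the measure, since Spearman's rho shared 0 of 3 with Pearson's r for *Fgf1*, *Fgf10* and *Fgf18* and at most 2 of 3 for the others, and r after removing group means shared 0 of 3 for *Fgf2* and *Fgf10*. *Fgfr2* was closest to *Foxd1*, a gene of the renal stroma (r=0.84), *Tcp11l2* (0.82) and *Gpr146* (0.82). *Fgf1* was closest to *Lad1* (0.99), *Slc35f1* (0.99) and *Kcnk1* (0.99), and *Fgfr4* to *Tmem171* (0.99) and *Crb3* (0.98). *Fgf2* was closest to *Lox*, which crosslinks collagen (0.96), *Dact3* (0.96) and *Disp1* (0.96). *Fgf18* was closest to the glypican gene *Gpc6* (0.98), *Gm43682* (0.97) and *Anxa1* (0.97), and *Fgf7* to *Csf1*, the macrophage growth factor (0.97), *Plpp3* (0.95) and *Stambpl1* (0.95). These values include the 2 WWP2-/- libraries with low *Acta2* and were not recomputed without them. In those 2 *Gpc6* was at 10.55 and 12.63 CPM, against 97.8 CPM or more elsewhere, and *Fgf18* was also lowest there. The r of *Fgf7* with *Fgf18* was -0.53 with them and 0.59 without. *Fgfr1* was closest to *Rabgef1* (0.97), *Fgfrl1* to *Osgep* (0.94), *Fgfr3* to *St3gal6* (0.88) and *Fgf10* to *Serpinb9b* (0.80). Among the 10 genes themselves the highest r was that of *Fgf1* with *Fgfr4*, at 0.93, and 0.91 without the 2 libraries with low *Acta2*.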

How the data were processed

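Counts per gene in 20 libraries of renal myofibroblasts were used as deposited. Per the study methods, the authors used STAR (GRCm38) and then featureCounts over exons on read pairs from poly-A libraries, so the values are counts without normalization. Whether counting used strand is not given in the sources used here. Groups and replicates came from the sample labels, and dose, duration and passage from the study text. Names and exon lengths came from GENCODE M21, which named 51633 genes. A gene entered the test if 5 or more libraries each held 5 or more of its counts. The test was that of edgeR 4.0.16 (TMM, glmQLFit, glmQLFTest, R 4.3.3), all 20 libraries and 4 groups in 1 fit, no block, and Benjamini–Hochberg adjustment over all genes at 0.05. Alternatives were the Wald test of DESeq2 1.42.0, other size factors, filters, covariates, fewer groups, the replicate block and libraries left out. The procedure was tested on simulated data. The genes and lists were chosen with earlier results of these data known. Named genes were *Wwp2*, the 10 members, up to 4 called pathway genes per direction and comparison at a mean of at least 1 CPM, feedback and target genes, and up to 3 genes most alike each member, of which 1 is not reported here. Each SE is the size of the log2 fold change over the square root of edgeR's F statistic, so it includes the spread between libraries. The floor of 3 counts covers counting error only.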

Additional observations from a re-analysis of the deposited data

Results flagged for a closer look

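Each of the 10 genes was tested in each group of 5 libraries, in 40 tests. In 8 of them the highest or lowest value stood farther from its neighbour than Dixon's criterion allows. The criterion's rate of about 1 in 20 holds for independent, normally distributed values. CPM were not transformed and the tests share libraries, so that rate is no measure of an excess here. In untreated WT cells the flagged values were *Fgf1* in replicate 4 (368 CPM, next 103), *Fgfr1* in replicate 3 (739 CPM, next 450) and *Fgf10* in replicate 3 (2.70 CPM, next 1.86). In untreated WWP2-/- cells they were *Fgf7* (291 CPM, next 75.4) and *Fgfr1* (1887 CPM, next 654), both in replicate 3. In treated WWP2-/- cells they were *Fgf7* in replicate 1 (330 CPM, next 32.7), *Fgf18* in replicate 1 (the lowest, 0.387 CPM, next 11.8) and *Fgfrl1* in replicate 3 (75.4 CPM, next 59.9). Of the 8, 4 fell in the 2 WWP2-/- libraries with low *Acta2*, and the part of that difference in them was not tested.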

How the results depend on the processing

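Of 1085 recomputed values for the 10 genes, 547 of 600 that left out 1 library and 454 of 485 others kept both direction and side of the threshold. The 1 call among the 10 genes between treated genotypes became 0 with no filter, with the replicate block, with *Xist* as a covariate, with only the groups compared and without the 5 libraries holding both *Xist* and Y-linked transcripts, and 3 without the 2 low-*Acta2* libraries. Leaving out 1 library gave 0 to 1. The 9 calls in the pathway list became 5 with no filter, 5 with the block, 4 with *Xist*, 3 with only the groups compared, 20 without the 2 libraries, 0 without the 5, and 2 to 14 with 1 library left out. Its 1 call between untreated genotypes became 9 by DESeq2's Wald test, 2 without the 2 libraries, 0 with the block, only the groups compared, *Xist* and Y-linked covariates or without the 5, and 0 to 10 with 1 left out. Calls over all genes between treated genotypes, 1238, were 790 with no filter, 670 with the block, 544 with *Xist*, 534 with only the groups compared, 817 with both covariates, 2672 by DESeq2, 3480 without the 2 libraries and 2 without the 5. Between untreated genotypes, 148 became 1 with the block, 84 with *Xist*, 1 with only the groups compared, 57 with both covariates, 747 by DESeq2, 271 without the 2 libraries and 1 without the 5. The alternatives with both covariates, without the 2 and without the 5 were chosen after seeing the data. The cause was not tested.

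Same-numbered libraries deviated from their group means with correlations of -0.522 to 0.443, so the replicate numbers do not pair the samples. With the replicate block *Fgfr2* between treated genotypes was -0.81 (adjusted *P* of 0.0572 by edgeR).

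Log2 fold changes that reversed were as follows. With the block they were -0.58 for *Fgf7* and -0.032 for *Fgf10* between treated genotypes and -0.10 for the *Fgf2* interaction. With *Xist* they were -0.54 for *Fgf1*, 0.26 for *Fgf10*, -0.23 for *Fgfr3* and -1.08 for *Fgfr4* between untreated genotypes, -0.69 for *Fgf1* under TGFβ1 in WWP2-/- cells and -0.15 for the *Fgf18* interaction. With both covariates they were -0.65 for *Fgf1*, 0.18 for *Fgf10* and -0.36 for *Fgfr4* between untreated genotypes, 0.0077 for *Fgf18* and -0.043 for *Wwp2* under TGFβ1 in WT and -0.25 for the *Fgf18* interaction. Without the 2 libraries they were -1.54 for *Fgf7*, -0.32 for *Fgf10* and -0.18 for *Fgfr1* between treated, -0.18 for *Fgf7* and -0.081 for *Fgfr1* between untreated genotypes and -0.14 for the *Fgf10* interaction. Without the 5 they were -0.070 for *Fgf10* between treated and -0.36 for *Fgf1* between untreated genotypes, 0.17 for *Fgf18* and -0.034 for *Wwp2* under TGFβ1 in WT, -0.0064 for *Fgfr1* under TGFβ1 in WWP2-/- and -0.22 for the *Fgf18* interaction. *Wwp2* under TGFβ1 in WT was -0.0078 with the stricter filter and -0.011 with only the groups compared.

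With 1 library left out, signs changed within these ranges. Between treated genotypes they were -1.56 to 0.996 for *Fgf7*, -0.33 to 0.22 for *Fgf10* and -0.19 to 0.57 for *Fgfr1*. Between untreated genotypes they were -0.18 to 1.40 for *Fgf7*, -0.23 to 0.037 for *Fgf10*, -0.080 to 0.76 for *Fgfr1* and -0.37 to 0.72 for *Fgfr4*. Under TGFβ1 in WT they were -0.51 to 0.059 for *Fgf18*, -0.084 to 0.71 for *Fgfr3*, -0.028 to 0.13 for *Fgfrl1* and -0.021 to 0.054 for *Wwp2*. Under TGFβ1 in WWP2-/- they were -2.34 to 1.22 for *Fgf7*, -0.37 to 0.25 for *Fgf18*, -0.51 to 0.73 for *Fgfr1* and -0.68 to 0.63 for *Fgfr4*. For the interaction they were -0.11 to 0.77 for *Fgf2*, -2.68 to 0.89 for *Fgf7*, -0.22 to 0.33 for *Fgf10*, -0.23 to 0.44 for *Fgf18*, -0.77 to 0.47 for *Fgfr1* and -0.044 to 0.15 for *Fgfrl1*.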

Other observations

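Other FGF ligands were scarce. Of 17 others listed, 10 were tested, and *Fgf11*, an intracellular FGF, was at 3.97±0.65 CPM in treated WT and 2.35±0.89 CPM in treated WWP2-/- cells (mean±SD, log2 fold change -0.75, SE 0.29, adjusted *P* of 0.124 by edgeR), without overlap of libraries, beside 5.67% of all genes. The klotho coreceptors *Kl* and *Klb* averaged 0.0563 and 0.105 CPM in treated WT cells.

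*Esrp1* and *Esrp2*, epithelial splicing regulators that select the epithelial form of *Fgfr2*, were at 0 to 1.89 CPM and 2.58 to 9.30 CPM. Neither passed a test, with log2 fold changes between treated genotypes of 2.23 (SE 1.35, adjusted *P* of 0.320) and 0.76 (SE 0.33, adjusted *P* of 0.166).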
